A study of Arabidopsis thaliana with 10 samples.

Results

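A set of 71 probe sets, out of 22746 on the Arabidopsis ATH1 arrays, had a higher level in boron-deficient than in control plants at 2 days, and no such difference under calcium deficiency or at 4 days of boron deficiency. Levels here are log2(signal + 16) after each array was shifted to the same median, 7.43. Membership was chosen by the measured differences themselves. A probe set was a member if boron-deficient plants of 2 days exceeded control plants of 2 days by at least 0.7, with a mean level of at least 7, if calcium-deficient plants exceeded the same control plants by less than 0.3, and if boron-deficient plants of 4 days exceeded control plants of 4 days by less than 0.4. The samples were whole plants of Arabidopsis thaliana, with no genotype or mutation named in the labels, raised in perlite and fed a complete solution (boron 25 µM, calcium 3 mM). The 10 arrays form 5 groups of 2 biological replicates: plants without boron for 2 days, plants without calcium for 2 days and control plants of 2 days, all 19 days old, and plants without boron for 4 days and control plants of 4 days, both 21 days old. The control plants stayed on the complete solution, and no arrays of 4 days of calcium deficiency were analysed here. The 3 differences of the rule use all 10 arrays, so every value of them below, the counts of calls of a fit over all probe sets included, is a description and tests nothing about the members.

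Boron is held in the plant cell wall, where it links pairs of the pectic domain rhamnogalacturonan II, and calcium also binds pectin, so that both nutrients bear on the same wall polymer. Walls of growing cells are built along cortical microtubules and are loosened by expansins and remodelled by glucanases, and peptides of the RALF family are perceived at the cell surface by receptor kinases. Boron moves little in the plant once fixed in walls, and growing tissues are known to show its lack first.

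Deposited medians ran between 114.9 and 121.2 for 2 days and between 232 and 243 for 4 days, and any level set across days therefore rests on the shift to a common median. Replicates correlated with Spearman coefficients of 0.969 in control plants of 2 days and 0.981 in boron-deficient plants of 2 days, and of 0.992 to 0.993 in the other 3 groups. Of 8 root marker genes, 2 had a probe set of their own, PYK10 and EXPA7, and their summed signal was 2316 to 3077 in boron-deficient plants and 2818 to 3645 in calcium-deficient plants, against 1472 to 1921 in control plants of 2 days. At 4 days it was 3742 to 3882 in boron-deficient plants and 3894 to 4272 in control plants. Nearly all of it came from PYK10. Of 8 leaf markers, 3 were measured, RCA, LHCB4.1 and PRK, with a sum of 34467 to 34993 in boron-deficient plants and 27182 to 28462 in calcium-deficient plants, against 35135 to 39471 in control plants of 2 days. At 4 days that sum was 32329 to 34727 in boron-deficient plants and 31100 to 32007 in control plants. No marker of either organ was at 0. In whole plants a change in the share of a tissue and a change of RNA per cell cannot be told apart, and the part of the root markers in the differences below was not tested.

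The calcium limit was the one that set the members apart. Of the 13415 probe sets with a mean level of at least 7 in boron-deficient plants of 2 days, 628 were at least 0.7 higher than in control plants of 2 days. Of these 628, 545 were at least 0.3 higher under calcium deficiency as well, and 83 were not. The limit at 4 days removed another 12 and left 71. The boron differences of the members at 2 days ran from 0.70 to 1.22 with a median of 0.78, against a median of 0.97 and a highest value of 3.32 in the other 557 probe sets past 0.7. Their calcium differences ran from −0.90 to 0.30 (median 0.16), and their boron differences at 4 days from −0.55 to 0.39 (median 0.10). In the other 557 the medians were 0.84 and 0.10. Boron and calcium deficiency were set against the same 2 control arrays, so these differences are not independent.

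Many members lay close to a limit: 38 within 0.1 of the boron limit at 2 days, 23 within 0.1 of the calcium limit and 7 within 0.1 of the limit at 4 days. Just inside the boron limit were AT5G22460 (0.702) and the probe sets 266184_s_at (0.708) and 266001_at (0.709), and just outside it were 253050_at (0.698), AOP1 (0.695) and 259279_at (0.688). At the calcium limit 261502_at (0.297), AT3G23940 (0.296) and TUA6 (0.292) lay just inside, and IQD30 (0.304), AT1G27030 (0.307) and AT3G02910 (0.314) just outside. At the limit of 4 days 264348_at (0.388), 249727_at (0.380) and AT5G22460 (0.373) lay inside, and AT5G45950 (0.403), 254563_at (0.416) and AT4G13840 (0.428) outside.

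The name table gave a single gene to 33 members: 8 with a gene symbol and 25 with a locus number only. The other 38 were not named in it, and 3 of these are probe sets that match several transcripts (263345_s_at, 267187_s_at and 266184_s_at). The named members lie on all 5 chromosomes, 9, 5, 4, 6 and 9 of them on chromosomes 1 to 5, and none lay within 10 protein-coding genes of another in the RefSeq annotation of TAIR10.1. The 8 genes with a symbol act in the wall and cytoskeleton (GH9B7, EXPA8, TUA6), in signalling and transcription (RALFL34, ORA47) and in metabolism and transport (PORB, UPP, SWEET17).

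GH9B7 (AT1G75680) encodes a glycosyl hydrolase of family 9, the family of the plant endoglucanases that cut glucan chains of the wall. At 2 days its level was 9.70 and 9.61 in boron-deficient plants and 9.16 and 8.85 in calcium-deficient plants, against 8.87 and 8.59 in control plants. The boron-deficient arrays lay above all others of that day, 1.89-fold over control (log2 difference 0.92, calcium 0.28). At 4 days its level was 10.05 and 9.87 in boron-deficient plants and 9.79 and 9.81 in control plants. Both boron-deficient arrays lay above both controls (log2 difference 0.16), and both groups lay above the boron-deficient plants of 2 days. EXPA8 (AT2G40610) is an alpha-expansin, a protein that loosens walls during growth. Its level was 8.56 and 8.23 in boron-deficient plants and 7.54 and 7.59 in calcium-deficient plants, against 7.44 and 7.87 in control plants at 2 days. At 4 days it was 7.51 and 7.80 in boron-deficient plants and 7.95 and 8.47 in control plants, so that both boron-deficient arrays lay below both controls (log2 difference −0.55). TUA6 (AT4G14960) encodes an alpha-tubulin, a subunit of microtubules. Its level was 11.58 and 11.39 in boron-deficient plants and 11.15 and 10.79 in calcium-deficient plants, against 10.82 and 10.54 in control plants at 2 days, with 1 calcium-deficient array above both control arrays and the other inside their range. At 4 days the 2 groups overlapped, at 11.08 and 11.04 in boron-deficient plants and 10.88 and 11.18 in control plants.

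RALFL34 (AT5G67070) encodes a secreted peptide of the rapid alkalinization factor family. Its level was 10.79 and 10.47 in boron-deficient plants and 9.81 and 9.91 in calcium-deficient plants, against 9.99 and 9.54 in control plants at 2 days, and boron-deficient plants stood 1.83-fold over control plants, with the calcium-deficient arrays inside the range of the controls. At 4 days its level was 10.84 and 10.73 in boron-deficient plants and 10.82 and 10.97 in control plants, and all 4 arrays exceeded control plants of 2 days. ORA47 (AT1G74930) encodes an AP2/ERF transcription factor known from jasmonate responses. Its level was 8.84 and 8.52 in boron-deficient plants and 7.69 and 7.54 in calcium-deficient plants, against 7.67 and 8.24 in control plants at 2 days, with the calcium-deficient arrays near the lower of the 2 control arrays. At 4 days it was 7.72 and 7.95 in boron-deficient plants and 7.59 and 7.61 in control plants. Both boron-deficient arrays lay above both controls (log2 difference 0.23), and all of these lay below both boron-deficient arrays of 2 days.

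PORB (AT4G27440) encodes protochlorophyllide oxidoreductase B, which carries out a light-driven step of chlorophyll synthesis, in plastids. Its level was 12.25 and 12.04 in boron-deficient plants and 11.46 and 11.57 in calcium-deficient plants, against 11.07 and 11.40 in control plants at 2 days, with a log2 difference of 0.91 for boron and 0.29 for calcium. Its level at 4 days was 9.36 and 8.98 in boron-deficient plants and 9.28 and 9.38 in control plants. Both groups of 4 days thus lay far below all arrays of 2 days. SWEET17 (AT4G15920) is a vacuolar fructose transporter. Its level was 9.68 and 9.68 in boron-deficient plants and 9.13 and 8.97 in calcium-deficient plants, against 8.98 and 8.76 in control plants at 2 days, with little spread in the boron-deficient pair. At 4 days it was 9.64 and 9.56 in boron-deficient plants and 9.70 and 9.71 in control plants, level with the boron-deficient plants of 2 days in both groups. UPP (AT3G53900) encodes a uracil phosphoribosyltransferase, an enzyme of pyrimidine salvage. At 2 days its level was 9.17 and 8.59 in boron-deficient plants and 8.30 and 8.14 in calcium-deficient plants, against 7.91 and 8.13 in control plants. At 4 days it was 9.07 and 8.70 in boron-deficient plants and 8.66 and 8.98 in control plants. The boron-deficient arrays of 2 days differed from each other more than in most of these genes, and both lay above the control arrays of that day.

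**Figure D1:**
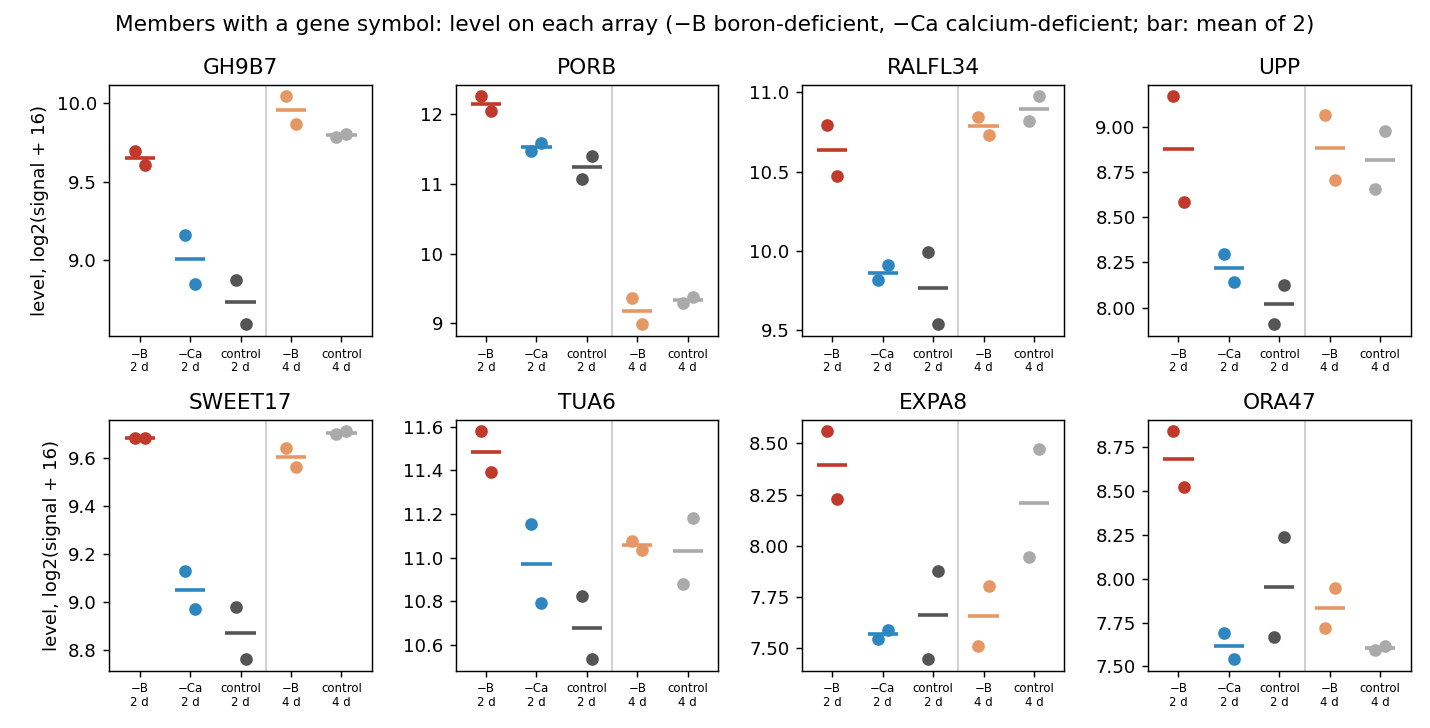
Level, log2(signal + 16) after the shift to a common median, of the 8 members with a gene symbol on each of the 10 arrays; points are arrays, bars are means of 2, and each panel has its own axis. In every panel the boron-deficient plants of 2 days stand above the control plants of 2 days, and at 4 days the control level is near the boron-deficient level of 2 days (within 0.3) for GH9B7, EXPA8, RALFL34, UPP and SWEET17 and far below it for PORB.

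Among the relatives of the 3 wall and cytoskeleton genes, those past 0.7 without being members exceeded the calcium limit. Of 15 measured GH9 genes 4 were at least 0.7 higher in boron-deficient than in control plants at 2 days and had a mean level of at least 7 in the boron-deficient plants: GH9B13 (1.67), GH9C2 (1.33), GH9B8 (1.33) and GH9B7. The calcium differences of the first 3 were 1.06, 0.66 and 0.84, so that GH9B7 alone was a member. GH9C2 and GH9B8 were below 7 in control plants of 2 days. Of 19 expansins 3 passed both limits: EXPA4 (1.39, calcium 1.11), EXPB3 (0.85, calcium 0.55) and EXPA8, which had a calcium difference of −0.09. Of 7 tubulins, TUB1 (1.82, calcium 1.12) and TUB7 (0.87, calcium 0.36) passed 0.7 besides TUA6, and TUA1 was at −0.72. Below 0.7, TUB5 (0.43, calcium −0.57), TUB6 (0.37, calcium −0.30) and EXPA15 (0.48, calcium 0.09) had calcium differences under the limit too. The median boron difference over all measured genes of the list, with no limit on level, was 0.03 for GH9, −0.04 for the expansins and 0.43 for the tubulins, beside −0.08 over all 22746 probe sets.

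Among the RALF, SWEET and chlorophyll genes the member stood alone past 0.7. These lists, and those of GH9 genes and pyrimidine salvage, were added after the members were seen. That each holds a member follows from this choice. Among 11 RALF peptides RALFL24 followed RALFL34 with 0.55 (calcium −0.35), RALFL33 was at −0.44, and the median was −0.10. Among 16 SWEET transporters SWEET1 was at 0.48 and SWEET2, another sugar carrier of the family, at −1.51 (calcium −1.25), with a median of −0.13. Among 8 genes of chlorophyll synthesis CHLI2, a subunit of magnesium chelatase, was at 0.50 (calcium −0.48) and CHLM, the methyltransferase of the step after it, at −0.15 (calcium −0.89), with a median of 0.16. The list of branched-chain amino acid breakdown and synthesis, named in the study's title, had 9 measured genes and 1 member, AT3G23940, which the list holds by its locus number, at 10.02 and 9.68 in boron-deficient plants and 9.47 and 9.29 in calcium-deficient plants, against 9.07 and 9.11 in control plants. BCAT4 of that list passed 0.7 too (1.66) but with a calcium difference of 0.78, and the median of the list was −1.45. UPP and ORA47 were the only measured genes of the lists of pyrimidine salvage and of AP2/ERF factors. No member matched the lists of xyloglucan endotransglucosylases, pectin enzymes, cellulose synthases, class III peroxidases, glutathione transferases, cytochromes P450 or glycosyltransferases. Lists were matched by gene name or synonym, so the 25 members with a locus number only and the 38 without a name could hardly match. Whether any of them belongs to these families was not examined. No gene of boron transport had a named probe set.

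The member with the largest boron difference was AT1G09310. Its level was 12.87 and 12.97 in boron-deficient plants and 11.83 and 11.77 in calcium-deficient plants, against 12.16 and 11.24 in control plants, which is 2.33-fold over control, though its control arrays were nearly as far apart as the groups. AT1G29660 (1.13) had a similar control pair, 9.83 and 8.77. AT1G48330 and AT5G50740 had closer pairs. The level of AT1G48330 at 2 days was 8.28 and 8.56 in boron-deficient plants and 7.61 and 7.64 in calcium-deficient plants, against 7.49 and 7.47 in control plants. Its level at 4 days was 6.99 and 6.97 in boron-deficient plants and 7.04 and 6.94 in control plants. The level of AT5G50740 at 2 days was 7.60 and 7.44 in boron-deficient plants and 6.93 and 6.76 in calcium-deficient plants, against 6.69 and 6.53 in control plants. The arrays of 4 days stood at 6.90 and 6.61 in boron-deficient plants and 6.85 and 6.88 in control plants. Both genes stood higher in boron-deficient plants of 2 days than on any other array.

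AT5G53880 (0.88), AT5G45670 (0.87), AT1G11850 (0.85), AT2G05790 (0.84), AT3G26450 (0.84), AT5G02890 (0.83) and AT3G05600 (0.83) complete the 15 largest boron differences among named members. The other named members, AT2G44210, AT1G06830, AT4G25890, AT5G63180, AT4G24350, AT1G01300, AT2G34620, AT5G48460, AT5G16250, AT3G23940, AT4G28780, AT2G22230, AT1G12845 and AT5G22460, lay between 0.70 and 0.83. The name table and the RefSeq annotation used here give these loci a number only. Among members without a name the largest boron differences were those of 258239_at (1.197), 264348_at (1.13), 263209_at (0.999) and 247218_at (0.97). The first of these had control levels of 8.71 and 10.85, apart by more than its own difference, while 263209_at stood at 9.36 and 9.05 in boron-deficient plants and 8.42 and 8.31 in calcium-deficient plants, against 8.28 and 8.12 in control plants.

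**Figure D2:**
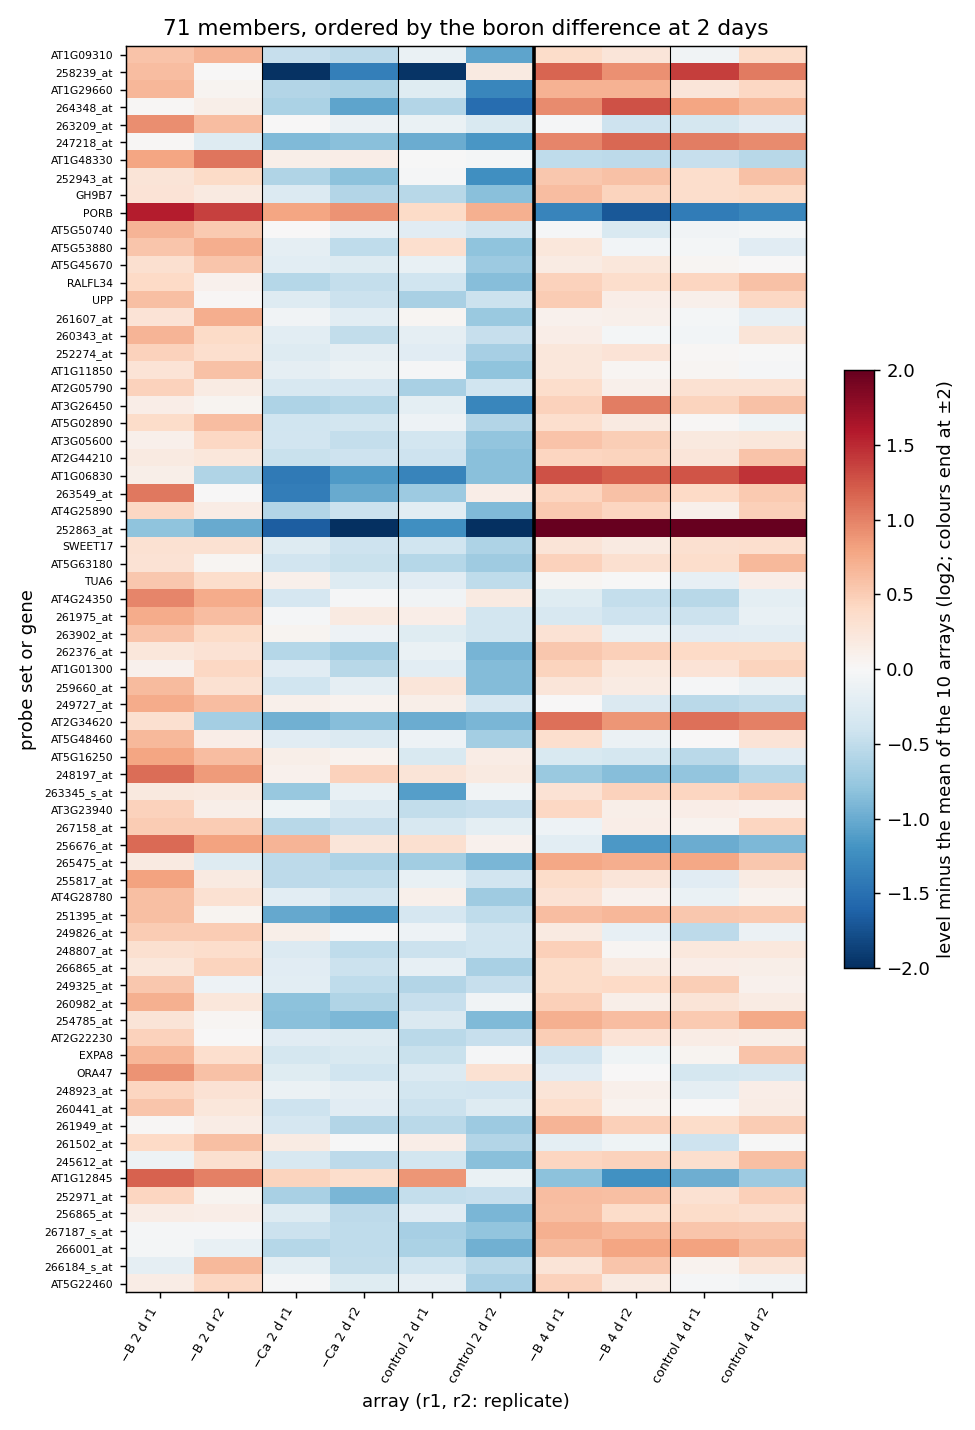
Level of the 71 members on the 10 arrays, each minus the member's mean over all arrays (log2 scale, colours ending at ±2), with members in order of their boron difference at 2 days and a thick line between the days. By the rule, mean levels in boron-deficient plants of 2 days are above those of the calcium-deficient and control plants beside them. In many members the arrays of 4 days differ more from those of 2 days than boron-deficient from control plants within 4 days. The rule kept high differences within 4 days out, so nothing is read from this. Of all 17059 probe sets tested by limma, 2 were higher in boron-deficient plants at 4 days. Between control plants of 4 and 2 days 17.6% were higher and 20.4% lower.

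At 2 days both boron-deficient arrays lay above both control arrays in 69 of the 71 members, against 22.8% of the 13415 probe sets with a mean level of at least 7; the rule used this contrast, so nothing is read from the count. The 2 exceptions were 258239_at and 263549_at. Both boron-deficient arrays lay above both calcium-deficient arrays in all 71 members (31.4% of the 13415), by 0.41 to 1.98 with a median of 0.68. This comparison has no control array in it, but its 4 arrays were used by the rule. Both calcium-deficient arrays lay above both control arrays in 16 members, beside 29.2% of the 13415, and below both in 6, beside 34.0%. Nothing is read from these counts either, since the rule capped the calcium difference. The lowest calcium differences were those of 263549_at (−0.90), 258239_at (−0.79) and 251395_at (−0.65). Of the genes with a symbol ORA47 had the lowest (−0.33), with calcium-deficient arrays at 7.69 and 7.54 and control arrays at 7.67 and 8.24.

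A limma fit over 17059 probe sets, with probe sets under the 25th percentile of mean level left out, kept all 71 members. By its moderated test, 44 of the 71 were higher in boron-deficient than in control plants at 2 days at an adjusted p of 0.05, beside 4.65% of all probe sets tested, and since the rule used this contrast nothing is read from the count. For calcium deficiency 0 members were higher (9.9% of all) and 1 was lower (11.7%), 251395_at, where the rule itself kept high calcium differences out. Without control replicate 1 of 2 days 8 members were higher and 3 lower, and without control replicate 2 of 2 days 0 were higher and 5 lower. For control plants of 4 days against control plants of 2 days, which share arrays with the rule, 38 members were higher (17.6%) and 5 lower (20.4%), the 5 being AT1G48330, PORB, 248197_at, 256676_at and AT1G12845. Without control replicate 2 of 4 days 23 were higher. At 4 days of boron deficiency 0 members passed in either direction, where 2 of 17059 probe sets did (0.0117%) and 825 had an unadjusted p under 0.05, and here too the rule kept high differences out. The count of 44 became 9 with only the 6 arrays of 2 days in the fit, beside 1.49% of all probe sets tested. It was 18 without control replicate 2 of 2 days, 19 without boron-deficient replicate 1 of 2 days and 28 without replicate 2 of that group. The 10 members that passed with any single array left out were 263209_at, 247218_at, AT1G48330, GH9B7, AT5G50740, 252274_at, AT2G05790, SWEET17, 248923_at and 267187_s_at.

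The boron difference was transient by the rule, but the level at 4 days was not lower in every member. At 4 days the mean level of boron-deficient plants was at or above their level of 2 days in 32 of the 71 members (45.1%). Over all 13415 probe sets with a mean level of at least 7 this share was 49.7%. The level of control plants of 4 days was at or above the boron-deficient level of 2 days in 27 members (38.0%, beside 49.8% of the 13415). Control plants of 4 days exceeded control plants of 2 days in 59 members, by at least 0.4 in 47 (20.3% of the 13415), with a median of 0.63 over all 71. Both control arrays of 4 days lay above both of 2 days in 52 members (33.4% of the 13415 probe sets) and below both in 8 (36.4%). In 25 members both boron-deficient arrays of 4 days lay above both of 2 days, and in 30 below (33.8% each way). Low control levels at 2 days and high ones at 4 days both favour membership, so these counts are not independent of the rule and carry no test. The other 557 probe sets past 0.7 were alike in this: control plants of 4 days exceeded those of 2 days in 85.8%, against 83.1% of the members and 48.1% of all 13415. The members' boron difference at 4 days had a median of 0.10, with both boron-deficient arrays above both controls in 23 members (21.4%) and below both in 2, EXPA8 and SWEET17 (20.3%).

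The members part into 3 kinds at 4 days. In 47 the control level was at least 0.4 higher at 4 than at 2 days, beside 20.3% of the 13415 probe sets. The probe set 252863_at (3.90), AT1G06830 (2.42), AT2G34620 (2.01), AT3G26450 (1.26), AT5G63180 (1.14) and RALFL34 (1.13) were among these 47. The level of AT1G06830 was 10.38 and 10.30 in boron-deficient plants and 10.35 and 10.55 in control plants at 4 days, against 9.23 and 8.49 in boron-deficient and 7.79 and 8.27 in control plants of 2 days. In 7 the control level was at least 0.4 lower at 4 days, beside 23.3% of the 13415. PORB (−1.90), AT1G12845 (−1.23), AT1G48330 (−0.49) and AT4G24350 (−0.44) were the named ones among these 7. In the other 17 the controls of the 2 days were within 0.4 of each other, beside 56.4% of the 13415. In 11 of these 17 the boron-deficient level was at least 0.4 lower at 4 days. Only these 11 combine a steady control level with a boron-deficient level that was lower again at 4 days. These 11 were 263209_at, AT5G50740, AT5G53880, 261607_at, TUA6, 261975_at, 263902_at, AT5G16250, 249826_at, ORA47 and 261502_at. Among the other 557 probe sets 19.4% had this pattern, beside 15.5% of the members and 4.54% of the 13415. The rule chose on the levels of 2 days, so nothing is read from these shares. With quantile normalization the 3 counts of 32, 27 and 11 were 32, 24 and 11, and with the arrays scaled before the pseudocount they were 31, 24 and 12. With a pseudocount of 64 they were 37, 33 and 9, and the median of boron-deficient plants of 4 days minus 2 days turned from negative to positive, −0.07 with the pseudocount of 16 and 0.06 with 64.

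**Figure D3:**
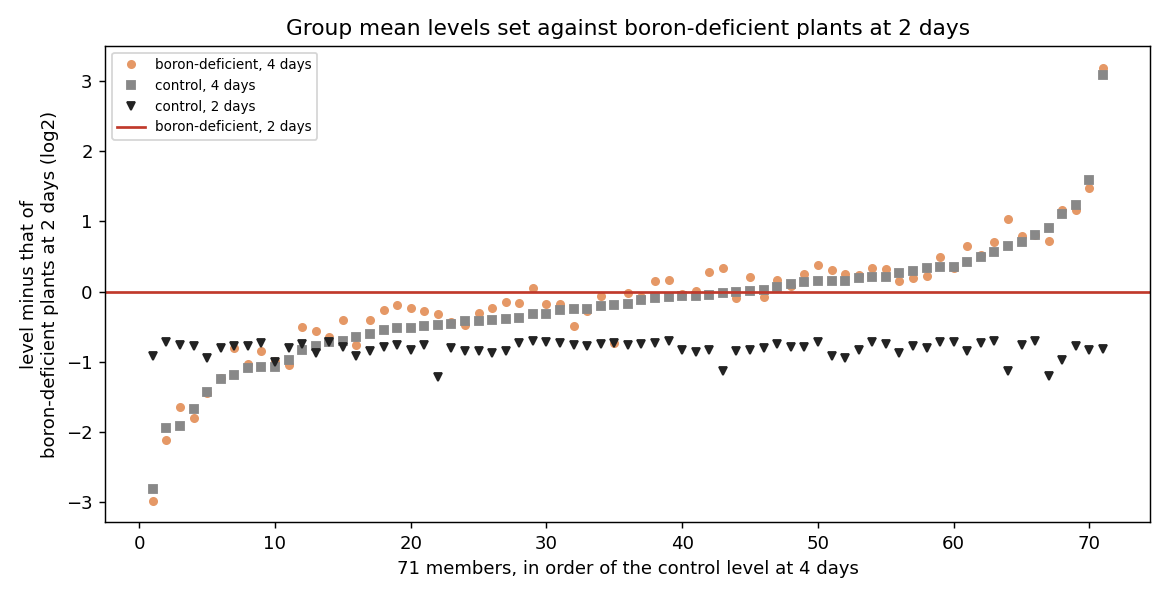
Mean level of control plants of 2 days (triangles), control plants of 4 days (squares) and boron-deficient plants of 4 days (circles) minus the mean level of boron-deficient plants of 2 days (line at 0), on the log2 scale, for the 71 members in order of the control level at 4 days. Circles follow squares over the whole range. In 27 members the square is at or above the line, beside 49.8% of the 13415 probe sets with a mean level of at least 7. The triangles lie 0.70 to 1.22 below the line by the rule.

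Membership rested most on the 2 control arrays of 2 days. Without replicate 1 of that group 71 probe sets met the rule, of which 20 were members, and without replicate 2 it was 70 and 26. Without boron-deficient replicate 1 of 2 days 75 met it, 41 of them members, and without replicate 2 of that group 152, 61 of them members. Without any single array of the other 3 groups 64 to 91 probe sets met the rule, and 58 to 70 of the 71 members were among them. The median gap between the 2 control arrays of 2 days was 0.42 over the members and 0.21 over all 13415 probe sets, and replicate 2 was the higher one in 20 of the 71.

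**Figure D4:**
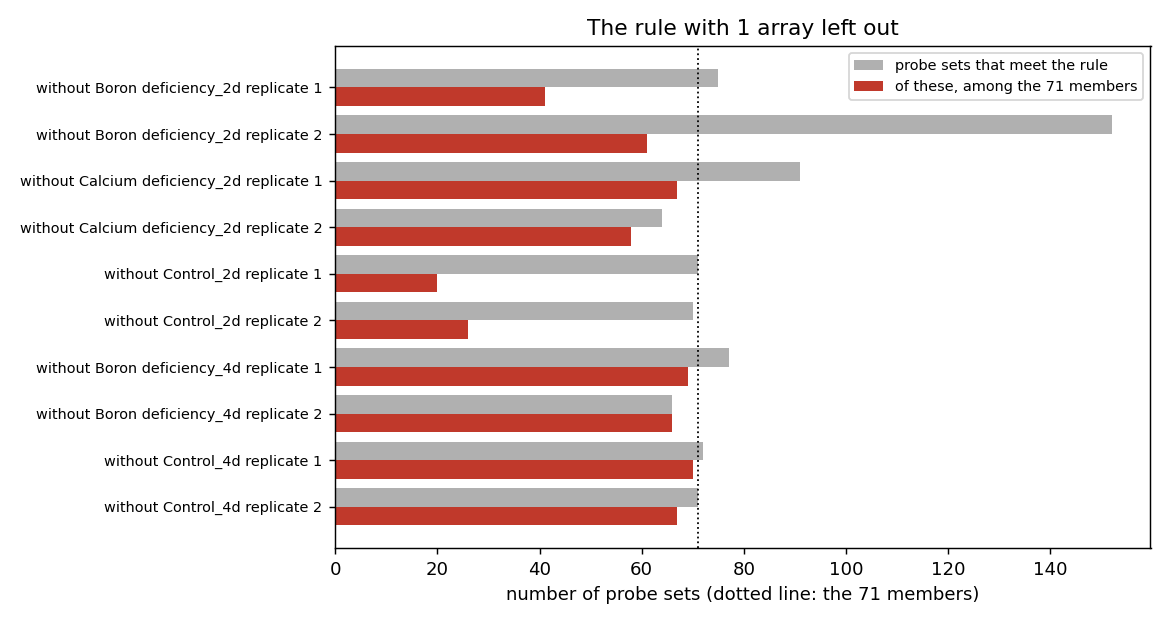
Number of probe sets that met the rule with the named array left out (grey) and how many of these were among the 71 members (red). Members were fewest, 20 and 26, without either control array of 2 days.

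The rule was also applied to the arrays of 1 replicate number and read in the other, which it had not used. The numbers are used only to name the arrays, since the labels tie no array of one group to an array of another. Other ways of matching the arrays were not tried. Which probe sets met the rule in 1 replicate or in both therefore rests on this numbering. On the 5 arrays of replicate 1, 170 probe sets met the rule. In the arrays of replicate 2 their boron difference at 2 days had a median of −0.09 (middle 50% −0.78 to 0.43), 22 of them (12.9%) were at 0.7 or more, beside 8.47% of all probe sets with that level, and 8 (4.71%) met all 3 limits, beside 0.819%. On the 5 arrays of replicate 2, 110 probe sets met the rule. In the arrays of replicate 1 their boron difference had a median of 0.43 (0.19 to 0.61), 21 (19.1%) were at 0.7 or more, beside 4.88%, and 8 (7.27%) met all 3 limits, beside 1.27%. In the replicate not used, the limit at 4 days was met by 131 of the 170 (77.1%, beside 94.9%). It was met by 90 of the 110 (81.8%, beside 95.2%). The calcium limit was met by 150 of the 170 (88.2%, beside 76.4%) and by 82 of the 110 (74.5%, beside 78.2%). Boron differences at 2 days were above 0 in 77 of the 170 (45.3%, beside 46.5%) and in 95 of the 110 (86.4%, beside 47.8%). Of the 71 members 25 met the rule in replicate 1, 20 in replicate 2 and 34 in neither.

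**Figure D5:**
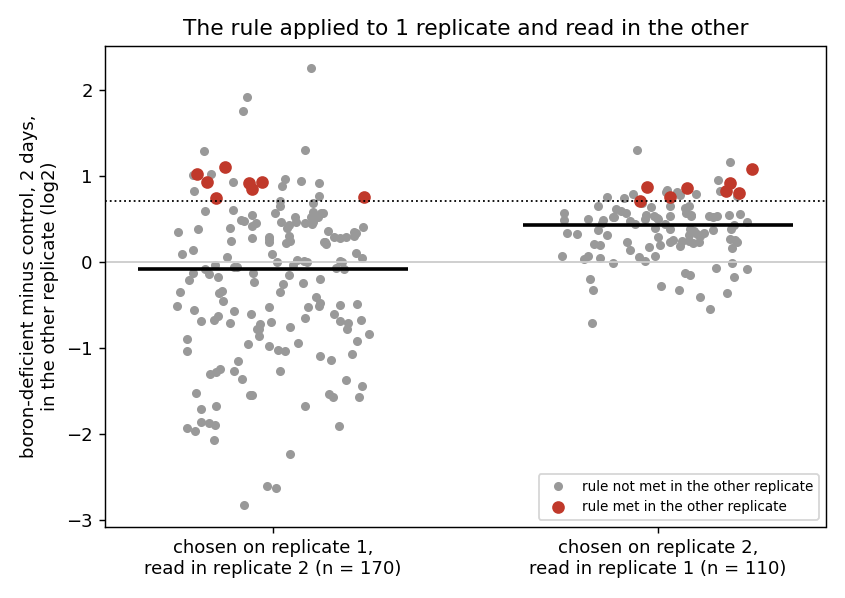
Difference between boron-deficient and control plants at 2 days (log2 scale) in the replicate that was not used for the choice, for the 170 probe sets that met the rule on replicate 1 (left) and the 110 that met it on replicate 2 (right). Black bars are medians, −0.09 on the left and 0.43 on the right, the dotted line is the limit of 0.7, and the 8 red points on each side are the same 8 probe sets.

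The 8 probe sets that met the rule in both replicates were GH9B7, SWEET17, AT1G48330, AT5G50740, AT5G63180 and the unnamed 263209_at, 260343_at and 248807_at. Their boron differences at 2 days, over both replicates, were 0.92, 0.81, 0.95, 0.91, 0.81, 0.999, 0.85 and 0.75 in that order. The level of AT5G63180 at 2 days was 9.60 and 9.35 in boron-deficient plants and 8.92 and 8.86 in calcium-deficient plants, against 8.74 and 8.60 in control plants, and all 4 arrays of 4 days, at 9.76 and 9.62 in boron-deficient plants and 9.66 and 9.96 in control plants, were at or above the level of its boron-deficient plants of 2 days. That of 260343_at was 9.01 and 8.71 in boron-deficient plants and 8.12 and 7.83 in calcium-deficient plants, against 8.15 and 7.87 in control plants. That of 248807_at was 8.08 and 8.12 in boron-deficient plants and 7.49 and 7.25 in calcium-deficient plants, against 7.33 and 7.37 in control plants. In each of the 8 the boron-deficient pair stood clear of the control and calcium-deficient pairs of 2 days. Of the 13415 probe sets with a mean level of at least 7, 22.8% did so for control and 31.4% for calcium. Calcium-deficient arrays both lay above both control arrays in 4 of the 8, beside 29.2% of the 13415. These were AT1G48330, AT5G50740, AT5G63180 and 263209_at. The 8 were chosen on these same arrays, so nothing is read from this. At 4 days the 8 parted. Control plants were higher than at 2 days with both arrays in 6 of the 8 (33.4% of the 13415). They were lower with both in 1, AT1G48330 (36.4%), and not separated in 263209_at. Of the 8, 5 were kept with any single array left out: 263209_at, AT1G48330, 260343_at, SWEET17 and 248807_at.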

How the data were processed

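Expression was measured on 10 Affymetrix ATH1 arrays of whole Arabidopsis plants, 2 biological replicates in each of 5 groups. The deposited values are 1 signal intensity per probe set and array, made by the authors with GCOS 1.4, per the submitters' processing notes. No source used here gives the target of the scaling, and the deposited medians differed by day (114.9 to 121.2 at 2 days, 232 to 243 at 4 days), for a reason that was not tested. An intensity has no counting depth, so the number of arrays limits the precision.

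Each array was moved to the log2(signal + 16) scale and shifted so that its median equalled the mean of the 10 array medians, 7.43. The members and the gene lists were chosen with earlier results of these data known, and 5 lists (GH9, RALF, SWEET, chlorophyll synthesis, pyrimidine salvage) were added after the members were seen. Differences between group means were computed with pandas 2.3.3 in Python 3.11.15, and figures were drawn with matplotlib 3.10.9. A fit with limma 3.58.1 in R 4.3.3 over all 5 groups left out probe sets under the 25th percentile of mean level, which kept 17059 of 22746. Its p-values were adjusted by the Benjamini-Hochberg method at 0.05, and it was tested on simulated data. Named by rule, among members with 1 gene, were the 15 with the largest boron difference, up to 4 from each gene list, the 5 highest in signal in boron-deficient plants of 2 days, the 4 highest and 4 lowest in control plants of 4 days minus 2 days, and the 3 probe sets on each side of a limit. Names given with other counts were chosen after their values were seen.

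The name table gave 1 gene to 13513 probe sets, several to 503 and none to 8730, and 13436 loci matched the RefSeq annotation of TAIR10.1. Promoter sequences were not used here. The labels and the design text differ in the age at the start of treatment, so only the ages at harvest are given. The alternatives were other pseudocounts, scalings, level limits and filters, arrays left out, a replicate block, and 2 chosen after seeing the data (another common median, a crossed block).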

Additional observations from a re-analysis of the deposited data

Results flagged for a closer look

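In 7 members both arrays of another comparison lay on the other side of their controls from the boron-deficient arrays of 2 days. The rule itself chose members on these differences, and the contrast in direction was not tested. At 4 days both boron-deficient arrays lay below both controls in 2 members, beside 20.3% of the 13415 probe sets with a mean level of at least 7. These were EXPA8, the alpha-expansin, with a log2 difference of −0.553, and SWEET17, the fructose transporter, with −0.102. By the moderated test of limma neither difference was past the threshold (adjusted p 0.995 for both). Their boron differences of 2 days had an adjusted p of 0.064 for EXPA8, not past the threshold, and 0.0089 for SWEET17. At 2 days both calcium-deficient arrays lay below both controls in 6 members, beside 34.0% of the 13415. In 5 of these 6, all without a name here, both boron-deficient arrays also lay above both controls. The log2 differences of these 5 were −0.647 for 251395_at, −0.441 for 260982_at, −0.306 for 252971_at, −0.2544 for 255817_at and −0.2542 for 267158_at. The other one, 263549_at, had the lowest calcium difference, −0.90, but its boron-deficient arrays overlapped its controls.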

How the results depend on the processing

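The number of probe sets that met the rule was 71, and it lay between 50 and 91 with another pseudocount, scaling, level limit or common median (the last chosen after seeing the data, 68) and with any single array left out but 1. With single arrays left out it ran from 64 to 152, the highest without boron-deficient replicate 2 of 2 days. Without replicate 1 of every group it was 110, of which 20 were members, and without replicate 2 of every group 170, of which 25 were members. The count alone hides which probe sets met the rule: with a pseudocount of 64, 36 of the 50 were members, and with quantile normalization 61 of 88.

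Of all probe sets tested by limma, 4.65% were past the threshold as higher at 2 days of boron deficiency. With only the 6 arrays of 2 days it was 1.49%. All groups in a fit share a single estimate of the spread. The standard deviation of replicate 2 minus replicate 1 was 0.385 in control and 0.369 in boron-deficient plants of 2 days. It was 0.196 in calcium-deficient plants, and 0.237 and 0.207 in boron-deficient and control plants of 4 days. The 44 members past the threshold became 9 with the 6 arrays of 2 days, where fewer arrays estimate the spread, and the cause was not tested. With single arrays left out they ran from 18 to 56. They were 18 without control replicate 2 of 2 days, 19 without boron-deficient replicate 1 of 2 days and 28 without replicate 2 of that group. With the replicate block they were 42, and 50 with the numbers of the boron-deficient plants of 2 days crossed, which was chosen after seeing the data. The 10 correlations of same-numbered deviations lay between −0.22 and 0.20. With 2 arrays per group these cannot decide whether the numbers pair the arrays. For the 25 members named by rule, 12 alternatives were run gene by gene: quantile normalization, scaling before the pseudocount and each of the 10 arrays left out. In these, 0 called differences changed direction. For boron at 2 days 18 of the 25 were past the threshold, and 49 of the 216 results that could lose this call lost it, while 7 of 84 gained one. For calcium 5 results gained a call. Over all probe sets the median of control plants of 4 days minus 2 days was −0.15, and −0.02 after quantile normalization. Over the 13415 probe sets with a mean level of at least 7 it was −0.025 without quantile normalization. The size of a shift across days thus depends on the probe sets taken.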
